A study of Mus musculus with 12 samples.

Results

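The genes described here encode the machinery of motile cilia, the beating projections that ependymal cells carry on the wall of the third ventricle beside the hypothalamus. They were picked by a rule on the symbol, set with earlier results of these data known. They are the protein-coding genes in the deposited tables whose symbols begin with Dnah, Dnai, Drc, Cfap or Tekt and a number, or with Rsph or Spag, together with Foxj1, Ccdc153 and Tmem212. The rule found 76 genes among 17161 listed in either table. Of them, 75 were listed on chow, 74 on the HFD and 73 on both. Cfap58 and Dnah8 were listed on chow only, and Dnah14 on the HFD only.

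A motile cilium is built around an axoneme, a ring of doublet microtubules with a central pair. Dynein arms walk along neighbouring doublets and bend the cilium, radial spokes pass signals from the central apparatus to the dyneins, and the nexin-dynein regulatory complex links the doublets. FOXJ1 and RFX factors are transcription factors that switch these genes on in multiciliated cells, and in the brain ependymal cells move cerebrospinal fluid with such cilia. Some genes with a Spag or Cfap symbol are used in other cells as well, and Spag4, Spag5, Spag7 and Spag9 are not known for cilia.

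Hypothalamus RNA came from 12 male C57BL/6J mice of 8 weeks, in 4 groups of 3. WT and Gpr75-/- littermates were kept on chow or were fed a HFD for 2 weeks from 6 weeks of age. The Gpr75 allele was made with CRISPR/Cas9 and leaves only the start of the protein, in every cell of the body. It may still let an mRNA be made, which was not tested, so the Gpr75 level does not check the labels. The group means of Gpr75 were 16.7 CPM in WT and 24.6 CPM in Gpr75-/- mice on chow, and 19.9 and 18.4 CPM on the HFD. The genotype is compared within each diet, and the question here is whether the motile cilia genes differ by genotype and whether that depends on diet.

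The tables hold 1 mean per gene and group and no value of a single mouse. They also hold the authors' own comparisons, which were not used, so no test over mice was made and no p-value is given. Levels are the authors' group means, returned to CPM, reads of a gene scaled to a fixed library total, and they are means of log values. A difference is Gpr75-/- minus WT on the log2 CPM scale, and 0.25 or more in size was called past. The error is the spread of differences over the 500 genes nearest in mean count, and a range is the difference plus or minus 1.96 times that spread. A gene whose range leaves out 0 is called beyond its spread. An average mouse had 18280462 normalized counts on chow and 19420111 on the HFD. The mean count of the members ran from 20.1 to 6111 on chow, with a median of 118, and from 23.6 to 5171 on the HFD, with a median of 120. The 12 hypothalamic genes used as a check of the tissue, among them Pomc, Agrp, Avp, Oxt and Hcrt, were listed in both tables, with mean counts between 49.9 and 5138.

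The promoters of several members hold a match to the X-box, the kind of sequence that RFX factors bind, and 8 of them are shown, because Tekt4, Dnai2, Dnah6 and the Dnah7 copies recur in the results. The X-box was searched as GTTGC and GCAAC with 3 to 5 bases between them, a pattern chosen after the data were seen that reads alike on both strands. Promoter windows of 300 bases, from 250 before the start of transcription to 50 after it, came from RefSeq on GRCm38.p6 and matched 63 of the 76 members, with 71 windows. The X-box stood in 12 of the 71 windows (16.9%) and in 144 of all 32851 windows (0.438%). The members were Cfap20dc, Cfap298, Cfap44, Dnah6, Dnah7a, Dnah7b, Dnah7c, Dnai2, Rsph3b, Tekt2 and Tekt4. In the lines that follow, each run is read 5′ to 3′ along the gene's strand and ends at or before the start, and capitals mark the X-box.
Dnah6: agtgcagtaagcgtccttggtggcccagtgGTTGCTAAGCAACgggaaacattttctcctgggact
Dnah7a: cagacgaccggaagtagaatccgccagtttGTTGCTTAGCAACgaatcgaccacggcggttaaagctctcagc
Dnah7b: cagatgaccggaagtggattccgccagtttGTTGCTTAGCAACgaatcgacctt
Dnah7c: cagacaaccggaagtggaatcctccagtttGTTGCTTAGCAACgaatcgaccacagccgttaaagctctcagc
Dnai2: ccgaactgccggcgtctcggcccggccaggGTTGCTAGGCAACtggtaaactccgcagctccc
Tekt2: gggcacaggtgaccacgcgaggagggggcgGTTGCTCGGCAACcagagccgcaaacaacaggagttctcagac
Tekt4: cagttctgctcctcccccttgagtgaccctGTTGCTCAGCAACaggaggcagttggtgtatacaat
Cfap44: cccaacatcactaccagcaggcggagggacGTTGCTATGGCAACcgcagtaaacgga

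The stretch of Dnah6, an inner arm dynein heavy chain, lies at chr6:73221632-73221697 (minus strand), with the last base of the X-box 24 bases before the start. The near copies Dnah7a, Dnah7b and Dnah7c carry the same X-box letters at chr1:53706799-53706871 (minus strand), chr1:46066799-46066852 (plus strand) and chr1:46425419-46425491 (plus strand). Dnai2, a dynein intermediate chain, has it at chr11:114727356-114727418 (plus strand). Tekt2 and Tekt4, tektins of the doublet wall, have it at chr4:126325675-126325747 (minus strand) and chr17:25471524-25471589 (plus strand), and Cfap44 at chr16:44394742-44394798 (plus strand). The shorter RFX site GTTGCC, searched on both strands, was in 39.4% of member windows and 12.5% of all windows. It can overlap the X-box: of the 12 member windows with an X-box, 7 held it overlapping the X-box, 4 only elsewhere in the window, and 1 not at all. The forkhead core GTAAACA, also searched on both strands, was in 2.8% of member windows and 3.6% of all windows. The 11 members with an X-box had a median difference of 0.08 on chow and -0.04 on the HFD, against 0.05 and -0.01 for the members whose windows lacked it, 51 and 50 genes.

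On chow, the motile cilia genes leaned higher in Gpr75-/- hypothalamus. Of 75 members, 45 had a higher group mean in Gpr75-/- mice, 20 a lower one and 10 the same, where 44.8% of all genes were higher and 41% lower, and the median difference was 0.05 where that of all genes was 0. A difference of 0.25 or more was reached upward by 14 members (18.7%) and downward by 5 (6.67%). Over all 16855 genes of the table these shares were 6.66% and 6.06%, and over genes with a mean count of 20 to 500, where most members lie, 11% and 9.75%. Beyond their spread were 10 members upward (13.3%) and 1 downward, against 4.81% and 5.16% of all genes. The 10 were Tekt4, Cfap70, Cfap157, Drc7, Cfap206, Dnai2, Spag6l, Dnai4, Rsph4a and Foxj1, and the 1 downward was Spag9. The ranges of Dnai2, Spag6l, Foxj1 and Spag9 left out 0 by less than the rounding of the deposited means can move their differences. Among the 42 members with a mean count of at least 100, 4 were past 0.25 upward (9.52%) and 1 downward, where all genes at that count gave 2.47% and 2.66%.

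Markers of the choroid plexus epithelium, a ciliated tissue next to the third ventricle, moved with the chow comparison. Of 20 markers, 18 were in the chow table, and all 18 were higher in Gpr75-/- mice, 17 past 0.25 (94.4%, where all genes gave 6.66%), with a median of 0.99, and their summed level was 102 CPM in WT and 147 CPM in Gpr75-/- mice. In WT mice 7 of the 18 stood at the lowest value the table gives, 1 CPM, so their differences, and the median with them, are measured from that floor. These 7 could not be lower in Gpr75-/- mice, so the direction of all 18 and the 94.4% were partly fixed in advance. None of the 7 was listed on the HFD. Ttr, the transthyretin gene, had 5.59 and 12.9 CPM, and the log2 of its mean over the 6 mice lay 4.22 above its mean log value, so it was very unequal between mice. Ttr was not alone: over the 18 markers the median of that distance was 0.41 on chow, with 1.11 for F5 and 0.91 for Kl. Over the 9 markers listed on the HFD the median was 0.00. For the 70 members with a mean count of at least 30 that distance was -0.01 to 0.11, with a median of 0.01. The largest were those of Drc7 (0.11), Tekt4, Cfap157 and Cfap70 (each 0.06), which are among the members with the largest upward differences on chow. Part of the distance is the difference between the groups itself. On the HFD, 9 choroid plexus markers were listed, with a median of 0.11 and summed levels of 92.2 and 98 CPM. Of these, 6 were higher and 3 lower, 1 past 0.25 upward (11.1%) and 2 downward (22.2%), where all genes gave 5.4% and 4.43%. Ttr was among the lower, with 3.6 and 1.35 CPM, a difference of -1.41 (range -1.90 to -0.93), opposite to chow. Slc13a4, a sulfate transporter, had the log2 of its mean 0.705 above its mean log value on the HFD. The part of choroid plexus tissue in the chow result was not tested. In bulk tissue, fewer cells of a type and less RNA per cell cannot be told apart.

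On the HFD, more members were lower than higher. Of 74 members, 31 were higher in Gpr75-/- mice (41.9%) and 38 lower (51.4%), with a median of -0.03, where 47.2% of all genes were higher and 36.1% lower, and 53.1% and 39.6% of those with a mean of 20 to 500. Past 0.25 were 3 members upward (4.05%) and 8 downward (10.8%), where all 16744 genes gave 5.4% and 4.43%, and genes with a mean of 20 to 500 gave 9.49% and 7.18%. Beyond their spread were 1 member upward (1.35%) and 4 downward (5.41%), against 5.1% and 4.68% of all genes, so the downward share was near the background and the upward share under it. The ranges of Ccdc153 and Spag9, both among the 4, left out 0 by less than that rounding can move their differences. Genes of like count leaned up on the HFD, and with their median taken off, the members' median was -0.05 and 14 were past 0.25 downward (18.9%), where the same step gave 5.11% of all genes and 8.38% of those with a mean of 20 to 500. On chow the same step gave a median of 0.05 and 13 members upward (17.3%), against 6.22% of all genes and 10.5% of those with a mean of 20 to 500. With a mean of at least 100, the median of the 44 members was 0.01 and 2 were past 0.25 downward (4.55%), where all genes at that count gave 1.72%.

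**Figure D1:**
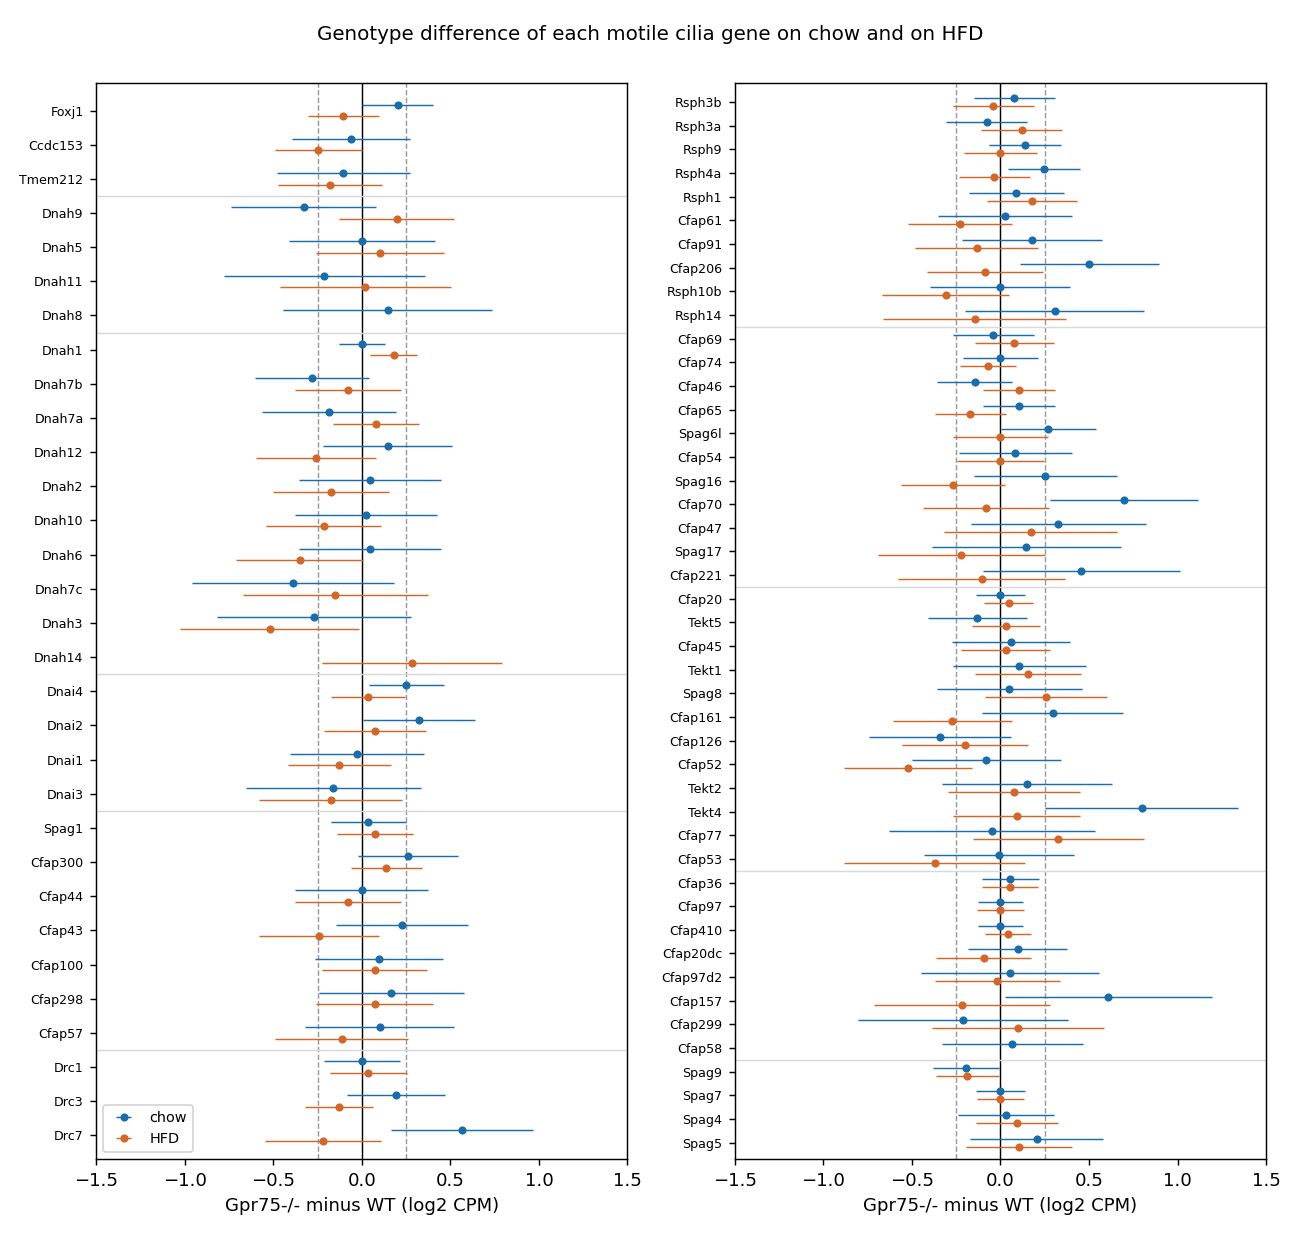
Gpr75-/- minus WT difference of each of the 76 members (log2 CPM, x axis) on chow (blue) and on the HFD (orange), grouped by role between grey lines. Points are differences of the authors' group means, bars are 1.96 times the spread of genes of like count, and dashed lines mark 0.25; most bars cross 0, and Tekt4, Cfap70 and Drc7 stand to the right on chow only.

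The largest upward differences on chow were in genes of several structures. Tekt4, a tektin inside the doublet (ENSMUSG00000024175, chr17:25673589-25695576, GRCm39), had a group mean of 1.64 CPM in WT and 2.86 CPM in Gpr75-/- mice, a difference of 0.80 (range 0.25 to 1.34). Its mean count was only 41.6, and it is named after its value was seen. On the HFD the same gene had 3.0 and 3.2 CPM, a difference of 0.09 (range -0.27 to 0.45).

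Cfap70, a protein of the central apparatus list (ENSMUSG00000039543, chr14:20444261-20502294), had 2.76 CPM in WT and 4.47 CPM in Gpr75-/- mice on chow, a difference of 0.70 (range 0.28 to 1.12). On the HFD it had 3.86 and 3.65 CPM, a difference of -0.08 (range -0.44 to 0.28). The HFD difference minus the chow difference was -0.78 (range -1.34 to -0.22), beyond its spread.

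Drc7, a subunit of the nexin-dynein regulatory complex (ENSMUSG00000031786, chr8:95781731-95804769), showed the same layout, with 3.97 CPM in WT and 5.88 CPM in Gpr75-/- mice on chow and 4.83 and 4.15 CPM on the HFD. Its differences were 0.57 (range 0.16 to 0.97) and -0.22 (range -0.55 to 0.11), and their gap was -0.78 (range -1.27 to -0.30). The other subunits of that complex among the members were less far apart. Drc1 had the same group mean in both genotypes on chow, 19.9 CPM, and Drc3 had differences of 0.19 on chow and -0.13 on the HFD, with a gap of -0.32 (range -0.65 to 0.00).

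Among the radial spoke genes, 8 of 10 members were higher in Gpr75-/- mice on chow and 2 of 10 on the HFD, with medians of 0.11 and -0.06. Of all genes, 44.8% and 47.2% were higher. Past 0.25 were 2 upward on chow (20%, where all genes gave 6.66%) and 1 downward on the HFD (10%, where all genes gave 4.43%). Beyond their spread were 2 upward on chow (20%, where all genes gave 4.81%) and none on the HFD. Cfap206, a protein of the spoke base, had 3.75 CPM in WT and 5.32 CPM in Gpr75-/- mice on chow, a difference of 0.50 (range 0.11 to 0.90), and 4.61 and 4.34 CPM on the HFD. The gap between diets was -0.59 (range -1.09 to -0.09). Rsph4a, a spoke head subunit, had a chow difference of 0.25 (range 0.04 to 0.45) and a HFD difference of -0.03. Rsph10b was equal between genotypes on chow and had 4.4 and 3.55 CPM on the HFD, a difference of -0.31 (range -0.67 to 0.05). The members of the group with the highest count averaged over both tables differed little: Rsph3b and Rsph3a, near copies whose reads may be split between them, and the spoke head subunit Rsph9 had chow differences of 0.08, -0.08 and 0.14. Rsph1, another spoke head subunit, was higher on both diets, by 0.09 and 0.18, within its spread.

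In the central apparatus group, 8 of 11 members were higher on chow and 3 of 11 on the HFD, where 44.8% and 47.2% of all genes were higher. Past 0.25 upward on chow were 5 of 11 (45.5%, where all genes gave 6.66% and genes with a mean of 20 to 500 gave 11%), and 2 were beyond their spread upward (18.2%, where all genes gave 4.81%). On the HFD 0 were past 0.25 upward and 1 downward (9.09%), where all genes gave 5.4% and 4.43%, and none was beyond its spread. The median of the gap between diets was -0.27, where that of all genes was 0.00. Spag16 had 4.61 CPM in WT and 5.5 CPM in Gpr75-/- mice on chow and 6.19 and 5.15 CPM on the HFD, so its differences, 0.25 and -0.27, were past 0.25 in opposite directions, with a gap of -0.52 (range -1.03 to -0.02). Cfap47 was higher on both diets, by 0.33 and 0.17, at mean counts of 57.3 and 41.5. The abundant Cfap69, Cfap74 and Cfap46 had chow differences of -0.04, 0.00 and -0.15, and HFD differences of 0.08, -0.07 and 0.10.

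The dynein genes did not move as 1 group. Of the outer arm heavy chains, the motors that set beat frequency, Dnah9 had 5.88 CPM in WT and 4.68 CPM in Gpr75-/- mice on chow and 4.15 and 4.75 CPM on the HFD. Its differences were -0.33 (range -0.74 to 0.08) and 0.20 (range -0.13 to 0.52), and it was the 1 member whose gap was upward beyond its spread, 0.53 (range 0.05 to 1.0). Dnah5, the other main outer arm motor of the respiratory and ependymal axoneme, had differences of 0.00 and 0.10. Dnah11 had -0.21 and 0.02 at mean counts near 30. Dnah8, listed on chow only, had a mean count of 28.4 and a difference of 0.15.

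The inner arm heavy chains, which shape the bend, had medians of 0.00 on chow and -0.16 on the HFD. Dnah3 had 1.79 and 1.25 CPM on the HFD, a difference of -0.52 (range -1.02 to -0.02), at a mean count of 30.1. Dnah6, whose promoter is printed above, had 4.47 and 3.5 CPM, a difference of -0.35 (range -0.71 to 0.01). On the HFD, 7 of 10 inner arm genes were lower, 3 of them past 0.25 (30%, where all genes gave 4.43%), and on chow 4 of 9 were lower, 3 of them past 0.25 (33.3%, where all genes gave 6.06%). Beyond their spread on the HFD were 1 of 10 upward and 1 downward (10% each), where all genes gave 5.1% and 4.68%, and on chow 0 of 9 in either direction, where all genes gave 4.81% and 5.16%. The 3 higher on the HFD were Dnah14, Dnah7a and Dnah1, the most abundant of them, which had 42.5 and 48.1 CPM and a difference of 0.18 (range 0.05 to 0.31), and no difference on chow. The copies Dnah7a, Dnah7b and Dnah7c were all lower on chow, with differences of -0.18, -0.28 and -0.39, each within its spread. They share sequence, so they are not separate observations. Dnah14, listed on the HFD only, had a mean count of 24.5 and a difference of 0.28.

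The dynein intermediate chains, which tether the motors, split in pairs. Dnai2 had 6.53 CPM in WT and 8.16 CPM in Gpr75-/- mice on chow, a difference of 0.32 (range 0.01 to 0.64), and Dnai4 had 16.7 and 19.9 CPM, a difference of 0.25 (range 0.04 to 0.46). Dnai1 and Dnai3 were lower on both diets, within their spread. Of the 7 genes for dynein assembly or regulation, 6 were higher on chow and 4 on the HFD, where 44.8% and 47.2% of all genes were higher. Past 0.25 was 1 of the 7 on chow (14.3%, where all genes gave 6.66%) and 0 on the HFD. None was beyond its spread on either diet. Cfap300 had differences of 0.26 and 0.14, Spag1 of 0.04 and 0.07, and Cfap44 of 0.00 and -0.08.

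**Figure D2:**
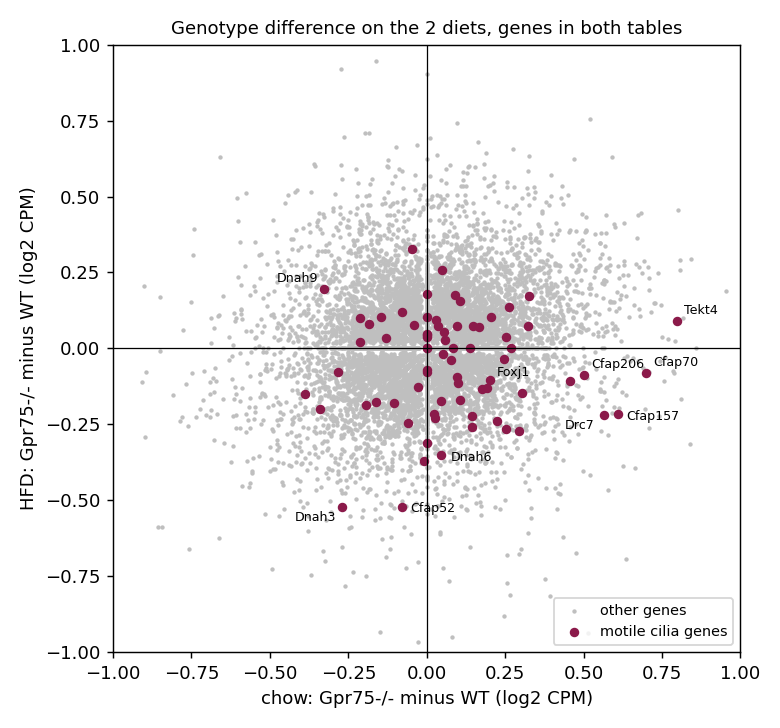
Gpr75-/- minus WT difference on chow (x axis, log2 CPM) against that on the HFD (y axis, log2 CPM) for the 16438 genes in both tables, with the 73 members in dark red; 13 other genes lie outside the axes. The members higher on chow and lower on the HFD fill the lower right, with Cfap70, Drc7 and Cfap157 farthest out.

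The doublet genes held members at both ends. Cfap52, a protein inside the doublet, had 4.15 and 2.89 CPM on the HFD, a difference of -0.52 (range -0.88 to -0.16), and -0.08 on chow. Cfap161 was higher on chow by 0.30 and lower on the HFD, at -0.27, with a gap of -0.57 (range -1.05 to -0.09). Cfap126 was lower on both diets, -0.34 and -0.20, within its spread. Spag8 and Tekt1 were higher on both, by 0.05 and 0.11 on chow and by 0.26 and 0.16 on the HFD. The abundant Cfap20, Tekt5 and Cfap45 had differences between -0.13 and 0.06. Cfap157, a basal body protein in no structural group here and named after its value was seen, had 1.42 CPM in WT and 2.16 CPM in Gpr75-/- mice on chow, a difference of 0.61 (range 0.02 to 1.19), at a mean count of 33.6. The most abundant members in no structural group, by count averaged over both tables, were Cfap36, Cfap410 and Cfap97. Their chow differences were 0.05, 0.00 and 0.00, and their HFD differences 0.06, 0.04 and 0.00.

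Foxj1, the transcription factor of motile ciliogenesis (ENSMUSG00000034227, chr11:116221530-116226225), had 13.5 CPM in WT and 15.5 CPM in Gpr75-/- mice on chow and 16.7 and 15.5 CPM on the HFD. Its differences were 0.20 (range 0.00 to 0.40) and -0.10 (range -0.31 to 0.10), and the gap was -0.31 (range -0.60 to -0.01). The ependymal markers Ccdc153 and Tmem212 did not share its direction on chow. Ccdc153 had 9.76 and 9.37 CPM on chow, a difference of -0.06, and 8.48 and 7.15 CPM on the HFD, a difference of -0.25 (range -0.49 to 0.00). Tmem212 had differences of -0.10 and -0.18, within its spread. Among the Spag genes not known for cilia, Spag9 had 349 and 305 CPM on chow and 279 and 245 CPM on the HFD and was lower by the same amount on both, -0.19 and -0.19. Spag7 had no difference on either diet, Spag4 had 0.03 and 0.09, and Spag5 had 0.20 and 0.10, within their spread.

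**Figure D3:**
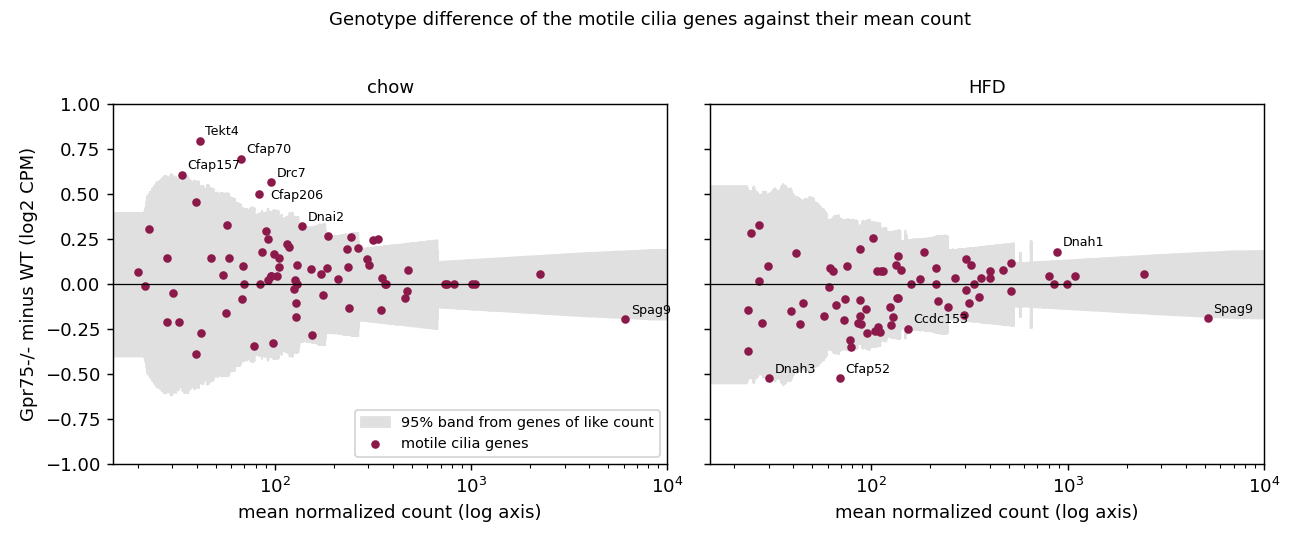
Gpr75-/- minus WT difference of the members (y axis, log2 CPM) against mean normalized count (x axis, log scale) on chow and on the HFD, with the grey band at 1.96 times the spread of genes of like count. The members farthest above the band on chow, Tekt4, Cfap70, Drc7 and Cfap206, have mean counts under 100, and on the HFD Cfap52 lies below it.

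Set side by side, the genotype difference was lower on the HFD than on chow in 47 of 73 members and higher in 24, with a median gap of -0.10 against 0.00 over all 16438 genes. Of all genes, 44.5% had a lower difference on the HFD and 50.6% a higher one. A gap of 0.25 or more was seen downward in 23 members (31.5%) and upward in 5 (6.85%). All genes gave 8.11% and 8.92%, and genes with a mean of 20 to 500 gave 13.4% and 15.2%. Beyond their spread were 7 members downward (9.59%) and 1 upward, against 4.22% and 4.29% of all genes. The 7 were Cfap70, Drc7, Cfap157, Cfap206, Cfap161, Spag16 and Foxj1, and several lay close to the limit of their range. A layout of higher on chow and lower on the HFD was found in 24 of 73 members (32.9%) and 14% of all genes, and the reverse in 9 members (12.3%) and 17.6% of all genes. Only Spag16, Cfap161 and Dnah3 were past 0.25 on both diets. The 2 diets share no mice. Choroid plexus markers moved the same way between the diets: of the 9 in both tables, 8 had a lower difference on the HFD, 7 of them past 0.25 (77.8%, where all genes gave 8.11%), with a median gap of -0.59, and their part in the members' gap was not tested.

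**Figure D4:**
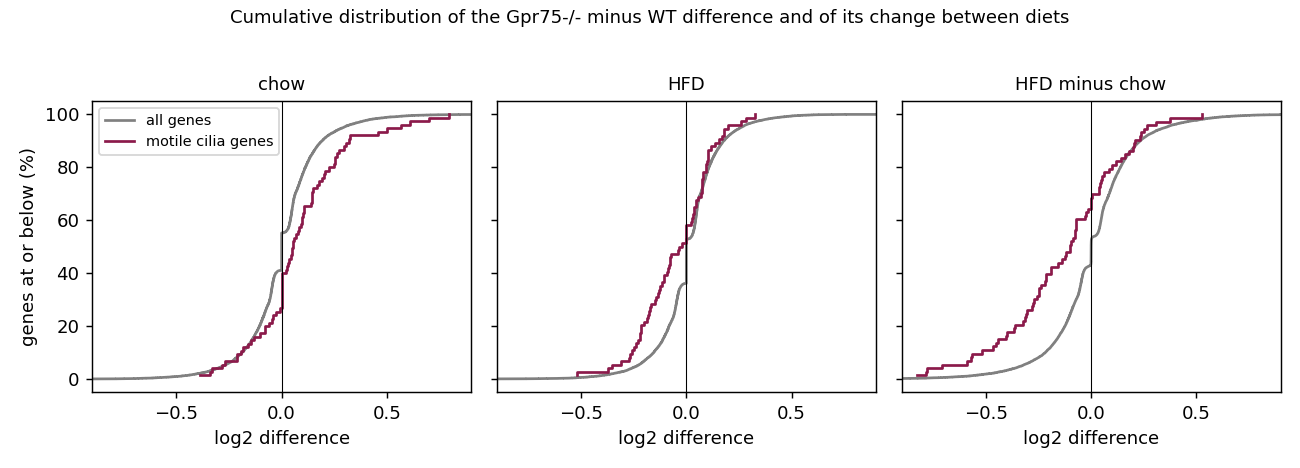
Cumulative share of genes (y axis, %) at or below a given log2 difference (x axis) for Gpr75-/- minus WT on chow, on the HFD, and for the HFD difference minus the chow difference, with members in dark red and all genes in grey. The members lie to the right of all genes on chow, and to the left in the third panel, where their median is -0.10.

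A list of motile cilia genes outside the naming rule had medians of the same sign, but few genes beyond their spread. The list was written from general knowledge, and holds, among others, Hydin of the central apparatus, docking complex genes (Odad) and Ccdc39. Of its 105 genes, 86 were in the chow table, where 59 were higher in Gpr75-/- mice and 21 lower, with a median of 0.08. Past 0.25 were 17 upward (19.8%) and 2 downward (2.33%), against 6.66% and 6.06% of all genes, while beyond their spread were 2 (2.33%) and 1 (1.16%), under the 4.81% and 5.16% of all genes. On the HFD, 26 of 82 were higher and 51 lower, with a median of -0.07. Past 0.25 were 2 upward (2.44%) and 11 downward (13.4%), against 5.4% and 4.43% of all genes, and beyond their spread 1 (1.22%) and 2 (2.44%), under the 5.1% and 4.68% of all genes. Iqub had 4.09 and 5.68 CPM on chow and 5.78 and 5.32 CPM on the HFD, and Cdhr3 had 5.88 and 7.02 CPM and 6.76 and 5.32 CPM. Others went the other way: Lrriq1 had a chow difference of -0.39 (range -0.75 to -0.02). Tppp3 had a HFD difference of 0.15 (range 0.00 to 0.30). Genes for intraflagellar transport and the BBSome, which serve the non-motile primary cilia of neurons too, had medians of 0.03 on both diets, with 1 gene of 42 (2.38%) and 1 of 43 (2.33%) past 0.25, both upward, under the 6.66% and 5.4% of all genes. The regulators of multiciliation had medians of 0.02 and 0.04 over 15 genes.

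Ependymal genes that are not axonemal had a median of 0.06 on chow and 0.00 on the HFD, over 18 genes. On chow 5 of the 18 were past 0.25 upward (27.8%) and 2 downward (11.1%), where all genes gave 6.66% and 6.06%, and 3 were beyond their spread upward (16.7%) and 2 downward, against 4.81% and 5.16%. On the HFD 3 were beyond their spread upward (16.7%) and 1 downward, against 5.1% and 4.68%. Hdc, histidine decarboxylase, was 1 of the 3, with a difference of 0.41 (range 0.29 to 0.53). The list is not exclusive to ependymal cells, since Aqp4 is in the astrocyte list too. Bulk tissue does not show whether ependymal cells or neurons gave the Hdc difference. Tanycyte markers, from the non-multiciliated cells of the ventricle wall, had medians of -0.14 and -0.08 over 16 genes. Beyond their spread on chow were 3 downward (18.75%) and 0 upward, where all genes gave 5.16% and 4.81%. On the HFD they were 4 downward (25%) and 1 upward (6.25%), where all genes gave 4.68% and 5.1%. Oligodendrocyte markers were lower in all 16 genes on both diets, where 41% of all genes were lower on chow and 36.1% on the HFD, with medians of -0.16 and -0.26. Markers of neurons, astrocytes, microglia and endothelial cells had medians between -0.07 and 0.03.

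**Figure D5:**
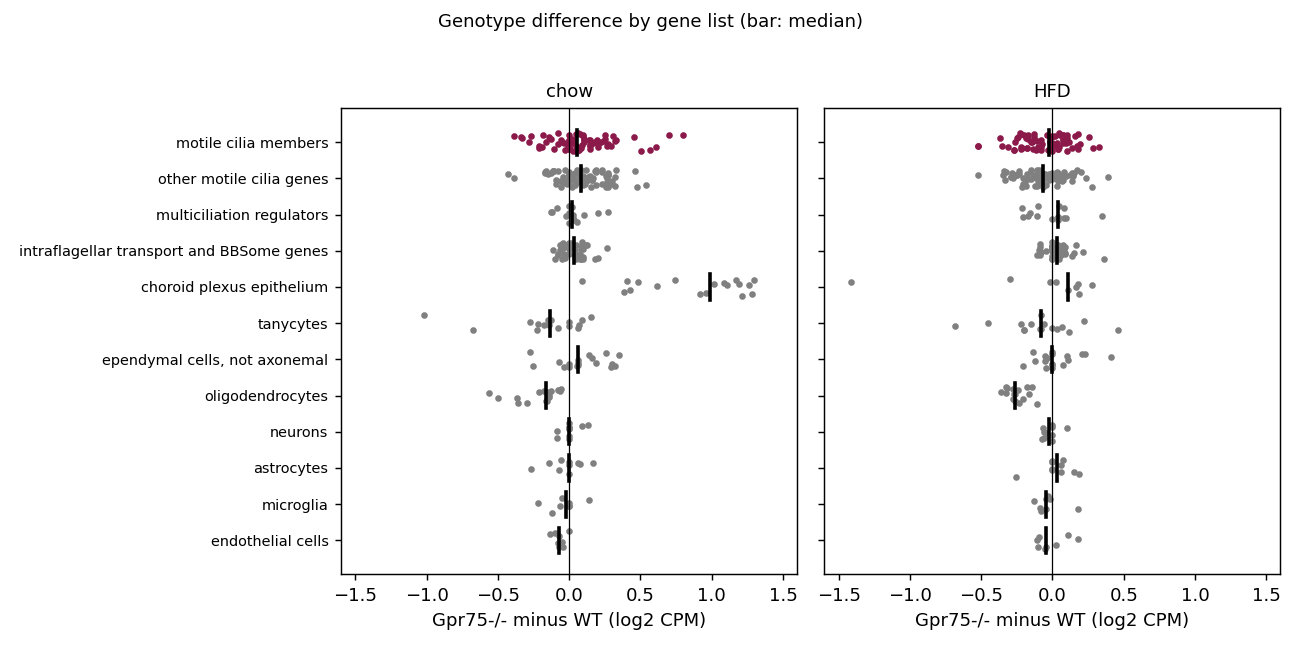
Gpr75-/- minus WT difference (x axis, log2 CPM) of each gene in the motile cilia members and in the other lists on chow and on the HFD, with 1 point a gene, vertical jitter and a bar at the median. Choroid plexus markers reach a median of 0.99 on chow, while the members have 0.05.

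Levels between genes were compared as mean normalized count per 1000 bases of the longest transcript, averaged over the tables. The highest were Cfap36 (1413), Spag7 (867) and Spag9 (769), against a median of 35 over the 76 members. Rsph9 followed with 325, Cfap20 with 255, and Rsph3b and Rsph3a with 221 and 219. Tmem212 had 179.8, Ccdc153 151 and Foxj1 111. The 14 dynein heavy chains, with longest transcripts of 12009 to 16685 bases, lay between 1.70 and 66.4, and all but Dnah1 at 11.8 or less. The tables give no spread between mice for these levels, so neighbours in the order were not told apart.

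Some members share their position with another listed gene, and the sources used here do not say whether reads were counted by strand. Of the 76, 23 overlapped another gene by the deposited coordinates, among them Dnah3 with Lyrm1, Cfap52 with 9130017K11Rik, Rsph10b with Pms2, Dnai4 with Mier1, Dnah1 with Gm35823 and Spag6l with Rpl31-ps12.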

How the data were processed

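RNA-Seq libraries of hypothalamus from 12 mice were made by the authors with the SMART-Seq mRNA LP kit. The submitters' processing notes name STAR, featureCounts, StringTie, DESeq2 and GRCm39. There is 1 deposited table per diet, normalized separately. The deposited signal of a gene is its average normalized count, scaled by size factors, in the 6 mice of that table. The deposited group means are on a log2 scale: by their values, the authors took log2 of the mean log2 CPM plus 1, rounded to 2 decimals and not under 0. This was undone here. Rounding can move a member's difference by up to 0.06, with a median of 0.03. Genes near 1 CPM (18.4 counts on chow, 19.5 on the HFD) are compressed; 5 members on chow and 7 on the HFD had means under 30.

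Another 9 columns per table hold the authors' own comparison (fold changes, standard errors, statistics and p-values) and were not used. Samples were grouped by their titles. Replicates are separate mice. The spread of genes of like count, which includes any genes that truly differ, stands in for the error between mice. The step was also run on simulated data, which cannot show whether the spread equals the error between mice for the members. No value of a single mouse was available, so that was not tested.

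The members and lists were chosen with earlier results of these data known. Named were Foxj1, Ccdc153, Tmem212, Gpr75, the 3 members of each role with the highest count averaged over both tables, the 5 largest differences in each direction per table at a mean of at least 50, and members of 1 table only; others were named after their values were seen. Lengths came from GENCODE transcripts by Ensembl identifier, for 76 members. Promoter coordinates are GRCm38.p6 and gene coordinates GRCm39. Tools were numpy 2.4.6, scipy 1.17.1 and pandas 2.3.3 in Python 3.11.15, and matplotlib 3.10.9 for plots.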

Additional observations from a re-analysis of the deposited data

How the results depend on the processing

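The median difference of the members ran from 0.04 to 0.07 on chow and from -0.12 to -0.07 for the gap between diets over the alternatives run, and on the HFD from -0.05 to 0.01, above 0 only at a mean count of at least 100. The counts past 0.25 depended on the threshold and on the count limit. On chow, upward and downward, they were 14 and 5; at least 100 counts left 4 and 1, a size of 0.5 gave 5 and 0, a size of 0.15 gave 10 downward, and without near copies 3 were downward. On the HFD they were 3 and 8; at least 100 counts left 1 and 2, at least 30 left 1 upward, sizes of 0.15 and 0.5 gave 8 and 21, and 0 and 2, and without members overlapping another gene they were 1 and 5. For the gap they were 5 and 23; at least 100 counts left 2 and 9, at least 30 left 3 upward, a size of 0.15 gave 12 upward, a size of 0.5 gave 1 and 8, and without overlapping members 2 were upward. Fewer members enter under the count limits and where members are left out. After the median of genes of like count was taken off, 14 members were downward on the HFD, and the cause was not tested further. By the spread of genes of like count, 1 member was downward on chow, 1 upward and 4 downward on the HFD, and 1 upward and 7 downward for the gap. This rule, the like-count median, and the settings without near copies or overlapping members were chosen after seeing the data. Among protein-coding genes, 4.25% were past 0.25 upward on chow. Without Spag4, Spag5, Spag7 and Spag9, with members of both tables alone, or minus the median of all genes, each count stayed within 1.5 times its value.

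Leaving out each mouse was not run, since the tables give group means. No paired analysis was possible because the columns carry no single mouse or replicate number. At a mean count of 30 to 60 the spread of differences was 0.28 on chow and 0.25 on the HFD, close to the 0.25 that was called past.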
